A study of Mus musculus with 6 samples.

Results

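Antigen presentation by MHC class I was followed through 10 genes in basal cochlea RNA of C57BL/6J mice. They encode the light chain B2m, the heavy chains H2-K1 and H2-D1, the peptide transporter chains Tap1 and Tap2, the loading factor Tapbp, the immunoproteasome subunits Psmb8, Psmb9 and Psmb10, and the transactivator Nlrc5. The members were chosen by symbol, and all 10 were found among 34395 gene entries. The 6 libraries, 3 young and 3 old by label, were made from total RNA depleted of ribosomal RNA. Mice of this inbred strain lose hearing with age, beginning at high frequencies, which the base detects, and no treatment or added allele is named for either group. The labels give no age in numbers, no sex and no word on animals or pools behind a library. The p-values therefore measure only the spread between these libraries.

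Nearly every nucleated cell displays peptides of its own proteins on class I molecules. The proteasome cuts proteins into peptides, TAP carries them into the endoplasmic reticulum, and tapasin and its partners load them onto a heavy chain held by B2m. Interferons induce this pathway, exchange the catalytic subunits of the proteasome for those of the immunoproteasome, and raise NLRC5, which acts on class I promoters.

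Of the members, 7 lie on chromosome 17 in or beside the H2 complex, and 3 elsewhere (RefSeq, GRCm38.p6). Psmb9, Tap1, Psmb8 and Tap2 are neighbours within 34.3 kb, from 34182030 to 34216321. Tapbp lies at 33919478 to 33929290, H2-K1 at 33996012 to 34000619 and H2-D1 at 35263094 to 35267497. B2m is on chromosome 2 at 122147687 to 122153082. Nlrc5 (94434335 to 94527272) and Psmb10 (105935728 to 105938392) are on chromosome 8. All 10 are protein coding.

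Promoter windows from 250 bases before to 50 after the start site were found in the RefSeq table (GRCm38.p6) for 8 members, and for H2-K1 with 2 start sites. Shown here are the windows of the light chain and both heavy chains, whose RNA changed by unequal amounts, and of Tap1, which shares its window with Psmb9. Capitals mark matches on either strand to AANNGAAA (an interferon regulatory factor core), TTCNNNGAA (a GAS site), the NF-κB consensus, the CCAAT box, the GC box (GGGCGG) and the core of a cyclic AMP response element (TGACG).
B2m, chr2:122147437-122147736, plus strand: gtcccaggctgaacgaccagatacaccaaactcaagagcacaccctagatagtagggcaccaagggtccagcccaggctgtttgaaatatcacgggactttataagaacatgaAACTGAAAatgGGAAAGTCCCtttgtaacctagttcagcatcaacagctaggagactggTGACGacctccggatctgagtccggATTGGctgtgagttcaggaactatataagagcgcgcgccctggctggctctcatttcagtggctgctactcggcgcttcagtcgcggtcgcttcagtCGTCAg
H2-K1, chr17:34000298-34000597, minus strand: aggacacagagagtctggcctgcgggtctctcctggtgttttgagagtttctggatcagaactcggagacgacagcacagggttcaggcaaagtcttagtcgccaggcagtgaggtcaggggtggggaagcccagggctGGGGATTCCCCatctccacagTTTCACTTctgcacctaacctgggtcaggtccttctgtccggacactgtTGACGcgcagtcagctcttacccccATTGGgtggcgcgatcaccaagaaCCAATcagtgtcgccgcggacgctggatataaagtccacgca
H2-D1, chr17:35262844-35263143, plus strand: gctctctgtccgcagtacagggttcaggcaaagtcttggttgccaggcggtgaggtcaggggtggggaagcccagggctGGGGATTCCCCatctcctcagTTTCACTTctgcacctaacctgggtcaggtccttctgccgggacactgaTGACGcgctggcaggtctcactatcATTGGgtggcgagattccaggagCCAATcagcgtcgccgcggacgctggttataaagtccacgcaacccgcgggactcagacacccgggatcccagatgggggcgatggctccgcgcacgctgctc
Tap1, chr17:34187306-34187605, plus strand: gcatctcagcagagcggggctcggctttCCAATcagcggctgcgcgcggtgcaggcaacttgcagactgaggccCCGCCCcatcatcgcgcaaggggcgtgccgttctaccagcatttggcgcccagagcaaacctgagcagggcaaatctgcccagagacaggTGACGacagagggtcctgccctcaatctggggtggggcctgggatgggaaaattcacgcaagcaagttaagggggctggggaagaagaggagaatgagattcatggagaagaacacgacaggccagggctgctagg

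The same order of motifs stood in both heavy chain windows: the NF-κB match, the AANNGAAA match, TGACG, and a reversed and a forward CCAAT. The NF-κB matches of the heavy chains began at position -111 in H2-K1 and -171 in H2-D1, and their AANNGAAA matches at -90 and -150 (counted from the start site). The longest run of bases identical between these windows was 47. B2m carried the same pair in the other order, AANNGAAA at -137 and NF-κB at -126. The longer interferon-stimulated response element core, which overlaps AANNGAAA, was found in the window of B2m alone among the members.

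The shares of all 32851 promoter windows of this length with a match were 23.9% for AANNGAAA, 3.44% for that longer core, 8.3% for TTCNNNGAA, 8.46% for NF-κB, 37.4% for CCAAT, 35.7% for GGGCGG and 20.8% for TGACG. Of the 8 members with a window, B2m, H2-K1 and H2-D1 had AANNGAAA and NF-κB matches, and Psmb8 had TTCNNNGAA at -97. CCAAT was found in 6 members (B2m, H2-K1, H2-D1, Tap1, Tapbp and Psmb9), GGGCGG in 3 (Tap1, Tapbp and Psmb9) and TGACG in 5 (B2m, H2-K1, H2-D1, Tap1 and Psmb9). Psmb10 had none of these letters in its window. Tap1 and Psmb9 are read in opposite directions from start sites 226 bases apart, and their windows share 275 bases. These matches describe letters and say nothing about binding.

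Gene counts added up to between 26245416 and 39433584 per library, with fewer in each old than in each young library. Cochlear markers were present: Coch, an abundant protein of spiral ligament fibrocytes, had 6248 ± 631 CPM in young and 3584 ± 583 in old libraries (CPM, counts scaled by TMM to a common library size; SD, n = 3), and the hair cell motor gene Slc26a5 had 28.2 ± 6.75 and 8.20 ± 2.51. Sex-linked RNA differed with age group in 6 of 6 libraries. Xist had 12613 to 18384 counts in young and 0 to 9 in old libraries, while the Y-linked Ddx3y had 0 in young and 868 to 1107 in old libraries. Age and this difference cannot be told apart.

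Most of these class I presentation genes were lower in the old libraries. Of the 10 members 8 fell and 0 rose, at an adjusted p under 0.05 in edgeR's quasi-likelihood test with Benjamini-Hochberg adjustment over all 20157 genes tested. Over all genes 27.3% fell and 26.9% rose in the same test. The falls were largest for Psmb9, B2m and Tap1, and H2-K1 and Nlrc5 did not pass. The median log2 fold change (old minus young) of the members was -0.69, beside 0.01 over all genes tested. All 10 passed the filter on low counts. At an unadjusted p under 0.05 the counts were again 8 lower and 0 higher, and the share of all genes was not counted there. DESeq2 called 8 lower and 0 higher, beside 27.4% and 25.7% of all genes. With limma-voom the counts were also 8 and 0, beside 27.2% and 26.9% of all genes.

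The number that fell depended on how libraries were scaled. With library totals alone 5 members fell, against 14.5% of all genes, and on log2(FPKM + 1) 3 fell, against 13.7% (FPKM, fragments scaled by transcript length and library size). With TMM factors from protein-coding genes 7 fell, against 20.6%. The median log2 fold change of all genes was 0.274, 0.171 and 0.133 above that under TMM, in the order given. B2m, Psmb9 and Psmb10 fell under TMM and these 3. No member rose under the same 3, while 41.0%, 38.4% and 33.7% of all genes did. On log2(FPKM + 0.1) 4 members fell and 0 rose (13.9% and 39.2% of all genes), with upper-quartile scaling 8 and 0 (23.4% and 30.4%), and with library number as a block 8 and 0 (25.2% and 24.1%). In CPM, 7 members were lower in each old than in each young library and 0 higher, as were 31.0% and 31.2% of all genes. In FPKM and in shares of the library total only B2m, Psmb9 and Psmb10 stayed separate, 3 lower and 0 higher, beside 16.6% and 44.7% of all genes in FPKM and 17.5% and 45.4% in shares. H2-D1, Tap1, Tap2 and Tapbp overlapped there.

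**Figure D1:**
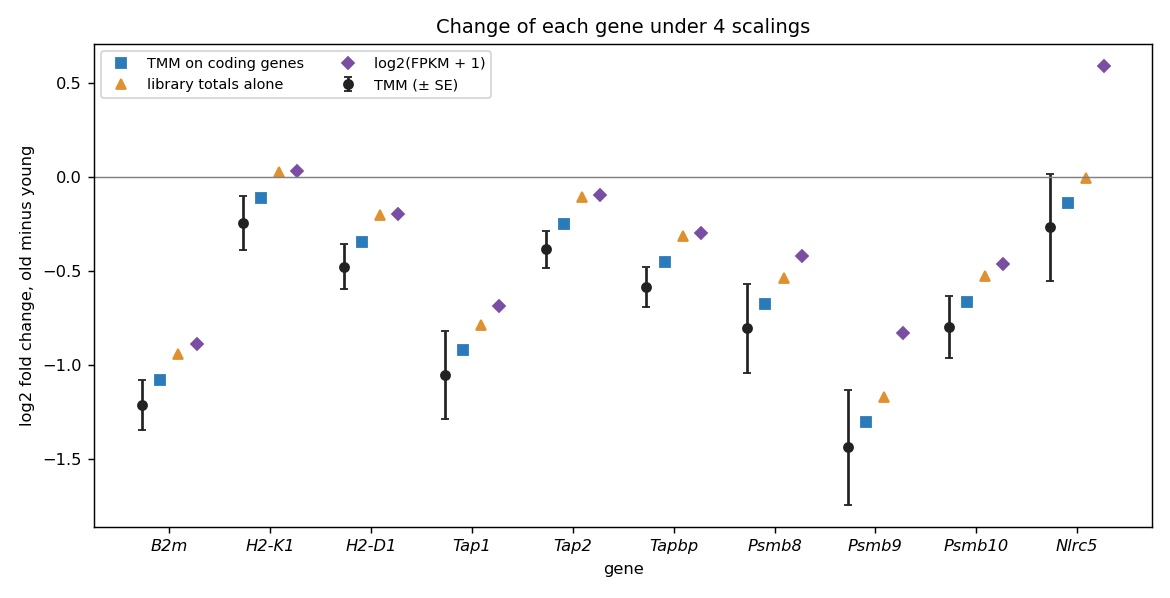
Log2 fold change of each gene (old minus young, y axis) under TMM, TMM from coding genes, library totals alone and log2(FPKM + 1), with SE bars for TMM. B2m (-1.21) and Psmb9 (-1.43) lie well below 0 under each scaling, H2-K1 lies between -0.24 and 0.03, and Nlrc5 lies below 0 in counts and above 0 (0.59) in FPKM.

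Among the chains of the class I molecule, the light chain differed most. B2m, which every class I heavy chain needs to fold and reach the surface, had 259.8, 330 and 229 CPM in young 1, 2 and 3 and 105, 132 and 117 in old 1, 2 and 3. The groups did not overlap, and the lowest young library stood well above the highest old one. B2m fell to 43.2% of its young mean (log2 fold change -1.21 ± 0.13, SE; adjusted p = 7.81e-05), and still fell by 0.94 with library totals alone (adjusted p = 0.000479). In RefSeq the span of B2m lies inside that of Patl2, which had 2 counts in young 1 and 0 in the other 5 libraries.

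The heavy chains moved less. H2-D1 had 215, 215 and 194 CPM in young 1 to 3 and 131, 181 and 136 in old 1 to 3, without overlap. It fell by 0.48 ± 0.12 on the log2 scale (adjusted p = 0.00709). With library totals alone its log2 fold change was -0.20 (adjusted p = 0.218). H2-K1 had 178, 175 and 145 CPM in young and 114, 173 and 134 in old libraries, and old 2 lay among the young values. Its log2 fold change of -0.24 ± 0.14 did not pass (adjusted p = 0.17). Without old 2 it was -0.43 (adjusted p = 0.0203), without old 1 -0.12 (adjusted p = 0.48), and with library totals alone 0.03 (adjusted p = 0.888).

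**Figure D2:**
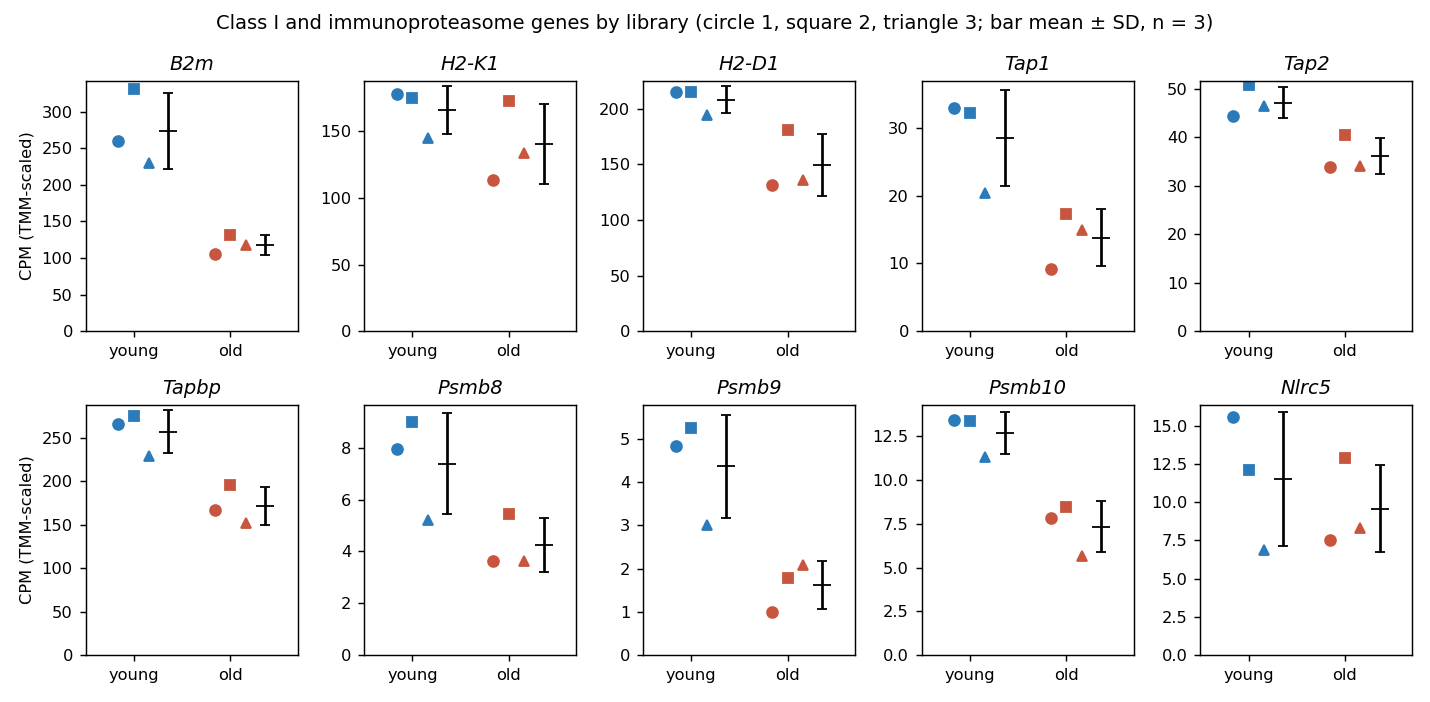
CPM of each gene (y axis, scaled by TMM) in young and old libraries, with circles, squares and triangles for libraries 1, 2 and 3 and bars for the mean ± SD (n = 3). B2m, H2-D1, Tap1, Tap2, Tapbp, Psmb9 and Psmb10 do not overlap between groups, while H2-K1, Psmb8 and Nlrc5 do.

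Because a ratio of genes within a library does not depend on scaling, B2m was also set against each heavy chain, a comparison chosen after their values were seen. Counts of B2m per count of H2-K1 were 1.46, 1.89 and 1.58 in young 1 to 3 and 0.922, 0.761 and 0.876 in old 1 to 3. Against H2-D1 they were 1.21, 1.54 and 1.18 in young and 0.798, 0.726 and 0.865 in old libraries. Each young ratio was above each old one for both heavy chains. The mean log2 ratio changed by -0.94 for H2-K1 and by -0.71 for H2-D1. Each difference had p = 0.1 in a two-sided exact permutation test, the smallest that 3 against 3 libraries allow (0.2 adjusted over the 6 ratios computed), so neither can pass.

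Heavy chain genes resemble each other in sequence, and how reads of shared stretches were assigned is unknown here. Of all runs of 50 bases in the longest coding GENCODE M21 transcript, 8.79% of those of H2-K1 and 14.3% of those of H2-D1 occur in transcripts of another gene. At 100 bases the shares were 0% and 4.64%, and the longest run shared by H2-K1 and H2-D1 was 91 bases. The values of both are uncertain to that extent. No run of 50 bases of B2m, Psmb8, Psmb9, Psmb10 or Nlrc5 was found in another gene, and Tap1, Tap2 and Tapbp shared 0.861%, 0.737% and 2%.

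Of the peptide transport and loading members all 3 fell. Tap1, a chain of the ATP-driven peptide transporter, had 33, 32.2 and 20.4 CPM in young 1 to 3 and 9.13, 17.3 and 14.9 in old 1 to 3. The groups did not overlap, though young 3 and old 2 came close. Tap1 fell by 1.05 ± 0.24 (log2; adjusted p = 0.0039), to 48.3% of the young mean. Tap2, its partner chain, had 44.4, 50.7 and 46.4 CPM in young and 34, 40.5 and 34 in old libraries. Its fall of 0.38 ± 0.10 (adjusted p = 0.00831) was smaller. With library totals alone the log2 fold change of Tap2 was -0.11 (adjusted p = 0.404), and with TMM from coding genes -0.25 (adjusted p = 0.0522).

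Tapbp encodes tapasin, which tethers empty class I molecules to the transporter and edits their peptides. It had 266, 276 and 230 CPM in young 1 to 3 and 167, 195 and 153 in old 1 to 3, with each old library below each young one in CPM. In FPKM old 2 (86.2) lay above young 3 (78.3). It fell by 0.58 ± 0.11 (log2; adjusted p = 0.00126), to 66.7% of the young mean. On log2(FPKM + 1) it did not pass (-0.30; adjusted p = 0.0787). Tap1 was at that scale's border as well (-0.68; adjusted p = 0.0516). Tapbp overlaps the noncoding Gm19412 over 1019 bases in RefSeq, which had 26 to 39 counts per library.

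All 3 immunoproteasome subunits fell, at low counts. Psmb9, the subunit that replaces Psmb6, had 173, 187 and 99 counts in young 1 to 3 and 29, 53 and 60 in old 1 to 3. That is 4.85, 5.25 and 3.02 CPM against 0.996, 1.78 and 2.08, without overlap. Psmb9 had the largest fall of the members, to 37% of the young mean (log2 fold change -1.43 ± 0.31; adjusted p = 0.00299).

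Psmb8 replaces Psmb5 and Psmb10 replaces Psmb7. Psmb8 had 7.96, 9.02 and 5.21 CPM in young 1 to 3 and 3.64, 5.44 and 3.63 in old 1 to 3, so that young 3 lay below old 2. It fell by 0.80 ± 0.24 (log2; adjusted p = 0.0161). That call was lost without young 2, old 1 or old 3 (adjusted p = 0.0705, 0.0588 and 0.0572) and with library totals alone (adjusted p = 0.102). Psmb10 had 13.4, 13.4 and 11.3 CPM in young and 7.83, 8.46 and 5.67 in old libraries, without overlap. Its fall was 0.80 ± 0.16 (adjusted p = 0.00244), and 0.52 with library totals alone (adjusted p = 0.0297).

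The constitutive subunits that these replace fell too. Psmb5, Psmb6 and Psmb7, the catalytic subunits of the standard proteasome, had log2 fold changes of -1.30 ± 0.11, -0.73 ± 0.12 and -1.45 ± 0.09 (adjusted p = 2.69e-05, 0.000523 and 1e-05). Psmb5 went from 51.2 ± 7.36 to 20.8 ± 1.14 CPM, Psmb6 from 54.6 ± 8.88 to 32.9 ± 0.823 and Psmb7 from 72.3 ± 5.59 to 26.4 ± 1.94 (SD, n = 3). The ratio of immuno to constitutive subunit within a library overlapped between the groups for each pair.

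Counts of Psmb8 per count of Psmb5 were 0.179, 0.18 and 0.0882 in young 1 to 3 and 0.168, 0.256 and 0.186 in old 1 to 3. Psmb9 per Psmb6 gave 0.105, 0.098 and 0.0471 in young and 0.0299, 0.0557 and 0.0621 in old libraries. Psmb10 per Psmb7 gave 0.202, 0.184 and 0.146 in young and 0.299, 0.343 and 0.199 in old libraries. The groups overlapped for all 3, and the differences in mean log2 ratio were 0.50, -0.74 and 0.64. Two-sided exact permutation p-values were 0.4, 0.3 and 0.2, which adjusted over 6 ratios are 0.4, 0.36 and 0.3. The smallest p that 3 against 3 libraries allow is 0.1, so no pair could pass, and a shift is not excluded. In all 3 ratios young 3 was the lowest of the young libraries.

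**Figure D3:**
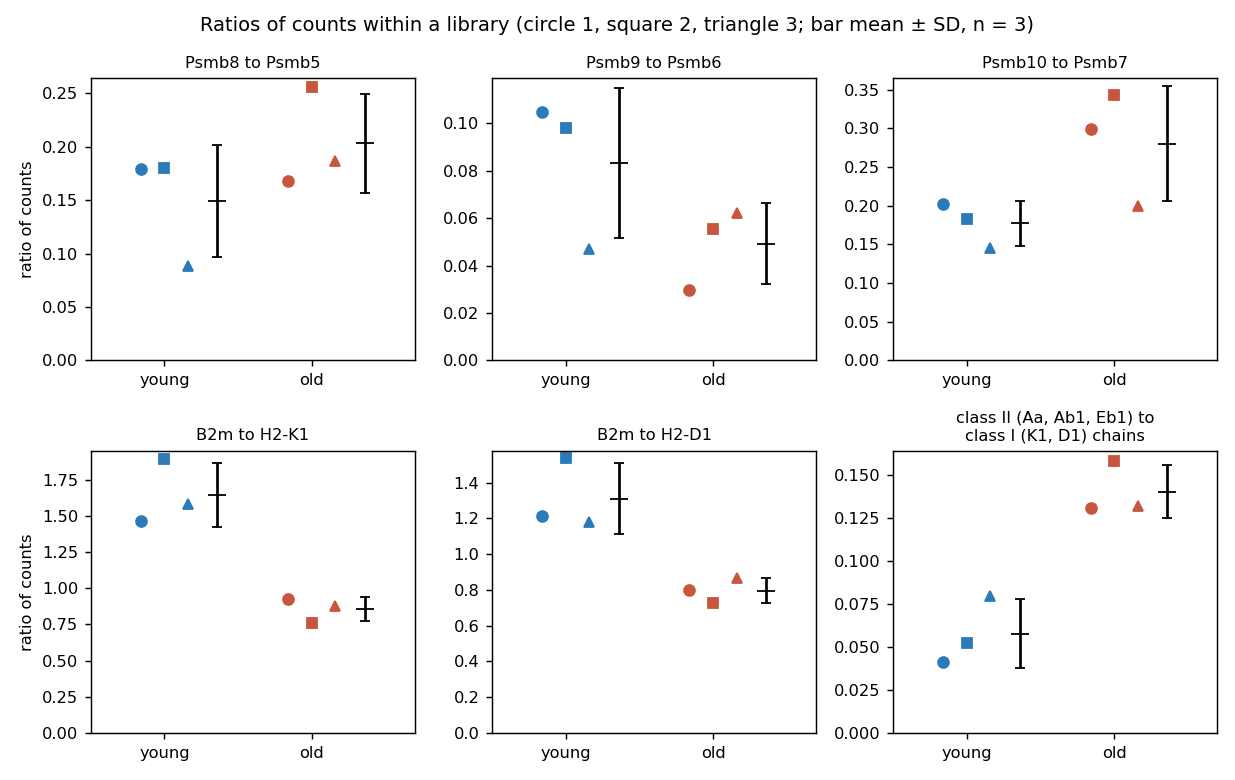
Ratio of counts of a pair of genes within each library (y axis), with circles, squares and triangles for libraries 1, 2 and 3 and bars for the mean ± SD (n = 3). B2m per heavy chain is lower in each old library and class II per class I chains higher, while the groups overlap for the 3 proteasome pairs.

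Nlrc5, which drives class I genes from their promoters, did not pass. It had 15.6, 12.1 and 6.85 CPM in young 1 to 3 and 7.55, 12.9 and 8.34 in old 1 to 3, and the groups overlapped throughout (log2 fold change -0.27 ± 0.28; adjusted p = 0.446). The deposited FPKM ordered the libraries in another way, with 5.07, 2.46 and 1.52 in young and 2.19, 5.02 and 8.41 in old libraries. On log2(FPKM + 1) the value was 0.59 (adjusted p = 0.274), so the direction differed between the tables and passed in neither.

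Counts and FPKM together imply an effective length for each library, which can lie below the length of the transcript. For Nlrc5 it was 2964, 4452 and 3887 bases in young 1 to 3 and 3746, 2850 and 1092 in old 1 to 3, a 4.08-fold span. Among 13739 genes with an FPKM of at least 1 in each library, the median span was 1.05-fold, and 0.109% of genes reached that of Nlrc5. Psmb9 spanned 1.19-fold, from 569 to 678 bases, and the other 8 members 1.04-fold or less. The longest coding GENCODE transcript of Nlrc5 has 7578 bases, which is another measure than the implied length. For B2m the mean implied length in young libraries was 640 bases, and that transcript has 860. In RefSeq its span overlaps the noncoding Gm51584 and 9330175E14Rik, which had 0 and at most 8.7 counts in any library.

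**Figure D4:**
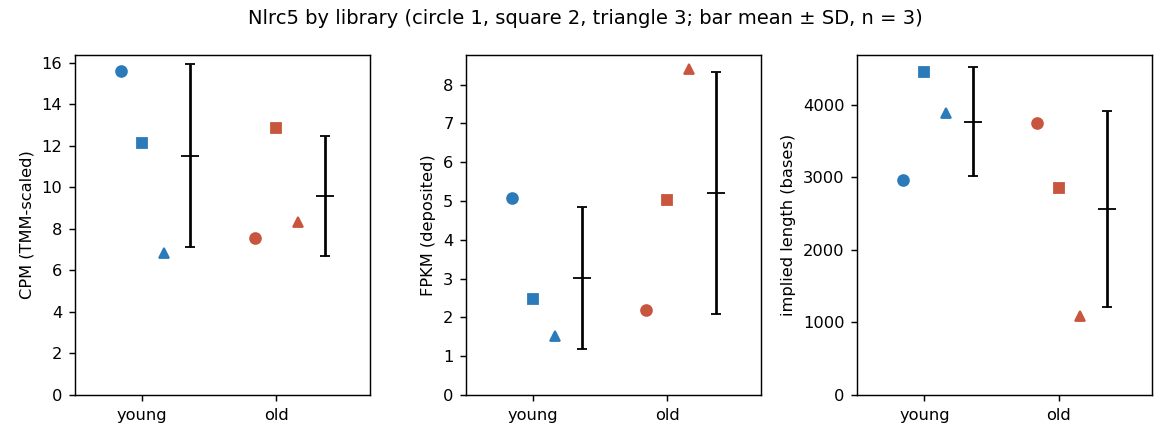
Nlrc5 in each library as CPM, as deposited FPKM and as the effective length in bases implied by both (y axes), with bars for the mean ± SD (n = 3). Old 3 has the highest FPKM (8.41) and the shortest implied length (1092 bases) but only 8.34 CPM.

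Per length, the order of levels in young libraries was B2m (389 ± 78.7 FPKM; SD, n = 3), H2-D1 (125 ± 12.8), H2-K1 (105 ± 16.2), Tapbp (92.7 ± 12.5), Tap2 (18.9 ± 1.26), Psmb10 (11 ± 1.49), Tap1 (9.56 ± 2.74), Psmb8 (6.73 ± 1.96), Psmb9 (6.06 ± 1.77) and Nlrc5 (3.02 ± 1.84). B2m stood above all others in each young library, and Tap2 between the chains with Tapbp and the rest. H2-D1, H2-K1 and Tapbp overlapped as neighbours in that order, as did the genes from Psmb10 down to Nlrc5. In old libraries B2m had 208 ± 24.9 FPKM, H2-D1 110 ± 21.1 and H2-K1 108 ± 24.1. Tapbp followed with 75.1 ± 10 FPKM, and its highest value there (86.2 in old 2) lay just under the lowest of H2-K1 (86.6 in old 1). Psmb9 had the lowest mean in old libraries, 2.98 ± 1.03 FPKM. Its highest value there (3.95) lay just under the lowest of Psmb8 (4.01), the next mean above it. It overlapped Tap1 and Nlrc5, which had 3.66 and 2.19 FPKM in old 1.

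Within groups, the members tended to be high or low in the same library. Young 3 had the lowest young CPM for 9 of 10 members, and old 2 the highest old CPM for 9 of 10. Over all genes tested the shares were 35.1% and 30.2%. As shares of the library total, the counts were 10 and 9 of 10, beside 52.1% and 33.7% of all genes. Among 14 tested nonclassical and class I-like genes young 3 was lowest for 9 and old 2 highest for 8. Among 9 genes listed as constitutive subunits and proteasome activators the counts were 1 and 2. Marker lists of other cells varied in this. Young 3 was lowest for 3 and old 2 highest for 9 of 10 endothelial markers. In the same order the counts were 7 and 0 of 8 B lineage and 6 and 7 of 12 macrophage markers. They were 1 and 2 of 5 T and natural killer cell, 2 and 1 of 10 neutrophil and 0 and 1 of 10 hair cell markers. For 7 strial marginal cell markers they were 0 and 1, and for 8 fibrocyte markers 0 and 2. Genes of one library share its RNA and preparation, so these are descriptions of that library.

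Of 14 tested nonclassical and class I-like genes, 1 rose and 3 fell (median log2 fold change -0.41), and 4 did not pass the filter. Under TMM neither share exceeded that of all genes (27.3% fell and 26.9% rose). Library totals alone again left 3 lower and 1 higher, where 14.5% of all genes were lower and 41.0% higher. Log2(FPKM + 1) gave the same counts, beside 13.7% lower and 38.4% higher. On these other scales the lower share of the list was above that of all genes, and the higher share below it. H2-T23, which encodes Qa-1, the ligand of inhibitory receptors of natural killer cells, had 102 ± 18 CPM in young and 53.9 ± 12.4 in old libraries and fell (log2 fold change -0.91 ± 0.17; adjusted p = 0.00124). H2-T22, a ligand of some gamma-delta T cells, fell by 0.70 ± 0.09 (adjusted p = 0.000213). Fcgrt, the heavy chain of the neonatal Fc receptor, which also pairs with B2m, fell by 0.77 ± 0.09 (adjusted p = 0.00013). H2-Q2 rose by 1.34 ± 0.34 at a low level, 0.764 ± 0.298 to 1.94 ± 0.167 CPM (adjusted p = 0.00738). Reads of H2-T23, H2-T22 and H2-Q2 may be split among similar genes, so their values are uncertain.

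Of 13 genes listed under peptide loading and trimming, 9 fell and 0 rose (median -0.36), or 6 and 2 with library totals alone. Of all genes 27.3% fell and 26.9% rose under TMM, and 14.5% and 41.0% with library totals alone. Calreticulin (Calr) had 618 ± 163 CPM in young and 345 ± 46.1 in old libraries, a fall of 0.84 ± 0.18 on the log2 scale (adjusted p = 0.00278) and calnexin (Canx), its membrane-bound relative, by 0.70 ± 0.08 (adjusted p = 0.000112). Ganab, a glucosidase subunit that prepares glycoproteins for both, fell by 0.82 ± 0.10 (adjusted p = 0.000106). Sec22b, a vesicle fusion protein, fell by 0.70 ± 0.08 (adjusted p = 0.000132). Calreticulin, calnexin and Ganab serve many glycoproteins besides class I.

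Of 9 genes listed as constitutive catalytic subunits and proteasome activators 8 fell and 0 rose (median -0.73), or 6 and 0 with library totals alone. The list also held Psmb11 and Pomp. Under TMM the gene that did not pass was Psmb11, at 0.589 ± 0.0967 CPM in young and 0.567 ± 0.284 in old libraries. The shares of all genes were 27.3% and 26.9% under TMM, and 14.5% and 41.0% with library totals alone. Psme2, a subunit of the interferon-inducible activator PA28, had 34.1 ± 2.74 CPM in young and 17.9 ± 0.875 in old libraries, a fall of 0.93 ± 0.10 (adjusted p = 6.33e-05). Pomp, which assembles the core particle, fell by 0.83 ± 0.12 (adjusted p = 0.000254). The median of this list lay close to that of the members.

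**Figure D5:**
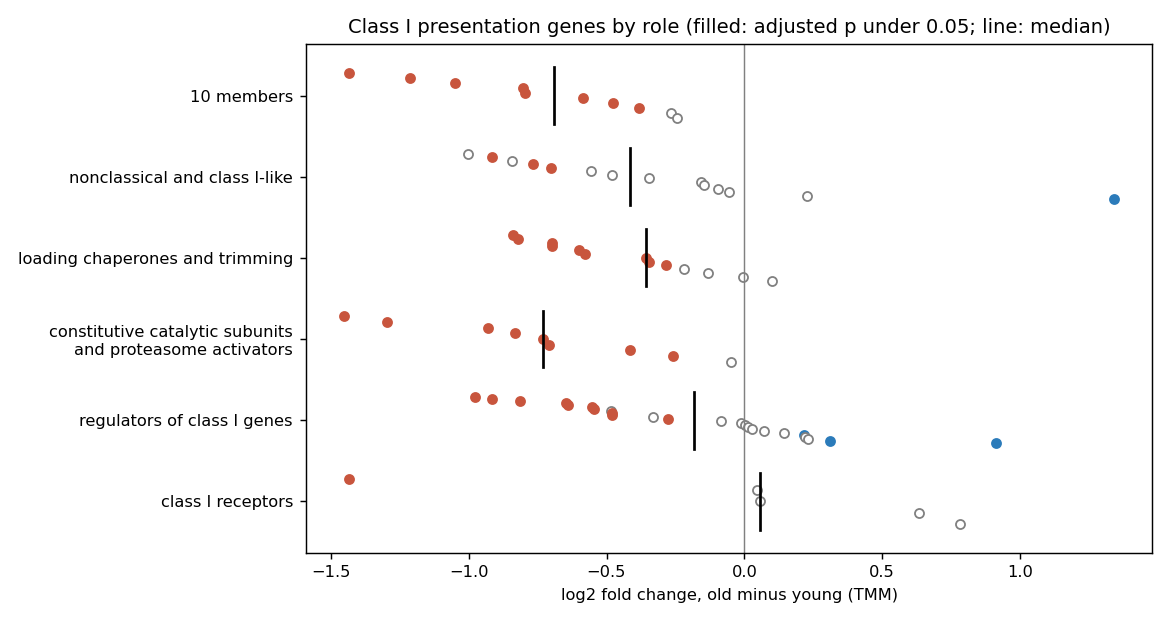
Log2 fold change (x axis, old minus young, TMM) of each tested gene by role, filled where the adjusted p was under 0.05, with a line at each median. The 10 members (median -0.69) and the genes listed as constitutive subunits and activators (-0.73) all lie below 0, the regulators (-0.18) on both sides.

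Regulators of class I genes had calls in both directions under TMM. Of 24 tested 10 fell and 3 rose (median -0.18), while library totals alone gave 5 that fell and 9 that rose. Of all genes, 27.3% fell and 26.9% rose under TMM, and 14.5% and 41.0% with library totals alone. Irf9, a DNA-binding factor of the type I interferon response, fell by 0.92 ± 0.19 (log2; adjusted p = 0.00235). Irf8, a factor of myeloid cells, fell by 0.81 ± 0.19 (adjusted p = 0.00422), and Irf7, an amplifier of type I interferon, by 0.98 ± 0.35 (adjusted p = 0.0379). Irf7 had 85.6, 66.5 and 28.2 CPM in young 1 to 3 and 22.9, 43.6 and 25 in old 1 to 3, with young 3 below old 2. Its call was lost with upper-quartile scaling, TMM from coding genes, library totals alone, a mean count minimum of 50, limma-voom, DESeq2 and both FPKM scales (adjusted p from 0.0516 to 0.269). With 1 library left out at a time, Irf7 passed without young 3 or old 2 (adjusted p = 0.000899 and 0.0234) and with no other library left out.

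Ciita, the class II counterpart of Nlrc5, had 2.06 ± 0.574 CPM in young and 3.88 ± 0.808 in old libraries and rose by 0.91 ± 0.26 (adjusted p = 0.013, and 0.059 without young 2). Irf2 rose by 0.31 ± 0.09 (adjusted p = 0.011) and Jak2, a kinase of interferon gamma signalling, by 0.22 ± 0.08 (adjusted p = 0.0359). The call of Jak2 was lost without any library except young 1 (adjusted p from 0.0612 to 0.163). Ifng had counts in young 1 alone and was at 0 in the other libraries, so it was not tested.

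Class II chains, chosen after their values were seen, rose under TMM, while H2-D1 fell and H2-K1 did not pass. With library totals alone neither of these heavy chains passed, and all 3 class II chains rose, as did 41.0% of all genes. H2-Aa, H2-Ab1 and H2-Eb1, which form the molecules that present peptides to helper T cells, rose with log2 fold changes of 0.78 ± 0.22, 1.17 ± 0.27 and 0.91 ± 0.23 (adjusted p = 0.0119, 0.00488 and 0.00749). Their summed counts per count of H2-K1 and H2-D1 were 0.0412, 0.0522 and 0.08 in young 1 to 3 and 0.131, 0.158 and 0.132 in old 1 to 3. The ratio was higher in each old library, 2.51-fold in the mean, and the two-sided exact permutation p was 0.1, the smallest possible (0.2 adjusted over 6 ratios).

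Of the receptors of class I molecules 5 of 10 were tested, and 1 fell and 0 rose, beside 27.3% and 26.9% of all genes. The median log2 fold change of the 5 was 0.06, and only 1 had a value below 0. Pirb, an inhibitory class I receptor of myeloid and B cells, had 7.61 ± 0.973 CPM in young and 2.81 ± 1.45 in old libraries and fell (log2 fold change -1.43 ± 0.30; adjusted p = 0.00266). The CD8 chain gene Cd8a had 0.588 to 0.975 CPM in young and 0.652 to 0.865 in old libraries (log2 fold change 0.06; adjusted p = 0.9).

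Markers of several other cell types changed too. In whole-tissue RNA fewer cells of a type and less RNA per cell cannot be told apart. Over all genes 27.3% fell and 26.9% rose under TMM, and 14.5% and 41.0% with library totals alone. All 10 neutrophil markers fell, and their summed level was 714 to 985 CPM in young and 40.1 to 119 in old libraries. Of 12 macrophage markers 5 fell and 1 rose, with sums of 223 to 252 and 165 to 222 CPM. With library totals alone 3 fell and 1 rose, and on log2(FPKM + 1) 2 and 1. Of 8 tested B lineage markers 6 fell and 1 rose, while their sum, carried mainly by the widely expressed Ebf1, was 240 to 267 and 360 to 408 CPM. Vpreb1 and Igll1 were at 0 in all old libraries.

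T and natural killer cell markers were near the floor, with sums of 7.73 to 9.67 and 5.6 to 7.88 CPM. Of 5 tested 2 fell and 1 rose, and Gzma and Ncr1 were at 0 in all old libraries. Of 10 endothelial markers 2 rose and 1 fell (26.9% and 27.3% of all genes), with sums of 244 to 303 and 305 to 353 CPM. With library totals alone 7 rose and 0 fell, beside 41.0% and 14.5% of all genes. All 10 hair cell markers, 7 of 7 tested marginal cell markers and 7 of 8 fibrocyte markers fell. Their sums were 167 to 257, 9176 to 12628 and 10120 to 13094 CPM in young and 99.5 to 114, 4946 to 5690 and 5585 to 7218 in old libraries. The part of these markers and of the sex-linked difference in the values of the members was not tested.

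Among the genes whose log2 CPM over the 6 libraries was most like that of B2m were Shisa5 (Pearson r = 0.997), Uck2 (0.997), H2bc8 (0.995) and Dck (0.994), out of 12629 named genes with a mean of at least 5 CPM. H2bc8 is 1 of several similar histone genes. Of all genes compared 517 (4.09%) had an r of at least 0.95, among them Tapbp (0.957). Tap2 (0.948), Tap1 (0.921), H2-D1 (0.91), Psmb8 (0.91) and Psmb10 (0.909) came lower, and H2-K1 (0.701) and Nlrc5 (0.429) lower still. The points fall into the age groups and share depth and preparation, so these values only describe likeness.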

How the data were processed

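RNA of the basal cochlea was measured in 6 libraries, 3 young and 3 old, after Trizol extraction, DNase treatment and depletion of ribosomal RNA, per the labels' protocols. The authors deposited estimated counts per gene, not scaled (20.2% of gene values are not whole), and FPKM values, scaled by length and library total, per the file headers. The build was GRCm38.p6, per the submitters' processing notes; no aligner, quantifier, annotation or strand setting is given in the sources used here. Of 42623 entries, 8228 circular RNAs without FPKM were left out; 28251 of 34395 gene entries were found in RefSeq.

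Counts were rounded and tested with edgeR 4.0.16 in R 4.3.3 (filterByExpr, TMM, quasi-likelihood F test, Benjamini-Hochberg over 20157 genes, adjusted p under 0.05). The design had no covariates. The fold change divided by the root of F gave the SE. CPM used TMM-scaled totals. The fit was tested on simulated data. Single ratios had exact permutation tests. Alternatives used limma 3.58.1, DESeq2 1.42.0, other scalings and filters, FPKM with pseudocounts of 1 and 0.1, a replicate block, and 1 library left out at a time. Tables and plots were made in Python 3.11.15 (pandas 2.3.3, matplotlib 3.10.9). Implied length is the count divided by FPKM and by the gene total of the library.

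The members and lists were chosen with earlier results of these data known. Named were all members, called genes of each pathway list (all where 5 or fewer in a direction, otherwise the 4 with the largest changes), Psmb5, Psmb6 and Psmb7, and the 5 genes most like B2m; some genes that this rule names are not reported here. Other genes, such as class II chains, are named after their values were seen. Like-numbered libraries did not deviate together (correlations of -0.0817, 0.0262 and -0.0574), so the main fit has no block.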

Additional observations from a re-analysis of the deposited data

How the results depend on the processing

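Of the 10 members, 8 were lower and 0 higher with upper-quartile scaling, DESeq2 size factors, a mean count minimum of 50, no filter, limma-voom, DESeq2, the replicate block and without the 10 largest features, as in the main test. Of all genes 18.6% (no filter) to 29.2% (mean count minimum of 50) were lower in these settings, and 16.6% to 30.4% higher. The number of members lower was 5 with library totals alone, 3 on log2(FPKM + 1), 4 on log2(FPKM + 0.1), and 7 to 9 with 1 library left out. In that order 14.5%, 13.7%, 13.9% and 21.9% to 28.9% of all genes were lower. The median log2 fold change of the members was -0.42, -0.36 and -0.39 with library totals alone and on the 2 FPKM scales. It ran from -0.81 to -0.58 with a library left out. The direction turned for H2-K1 (0.029 with library totals alone, 0.0299 on log2(FPKM + 1) and 0.0301 on log2(FPKM + 0.1)) and for Nlrc5 (0.59 and 0.74 on both FPKM scales); neither gene passed in any of these settings. The implied length of Nlrc5 is computed from counts and FPKM, so it must shift where their directions differ.

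Over all genes, 8259 were higher and 2920 lower with library totals alone, and 2758 and 2792 were lower on log2(FPKM + 1) and log2(FPKM + 0.1), against 5427 higher and 5496 lower with TMM. With 1 library left out, 3939 to 5310 were higher and 4499 to 5911 lower. Of 65 pathway genes tested 4 were higher and 31 lower, beside 26.9% and 27.3% of all genes. By library totals alone 12 were higher and 21 lower (41.0% and 14.5% of all genes). By TMM from coding genes 8 were higher and 24 lower (33.7% and 20.6%). On log2(FPKM + 1) and log2(FPKM + 0.1) 13 and 14 were higher (38.4% and 39.2% of all genes), and 18 and 18 lower (13.7% and 13.9%). With a library left out, 2 to 4 were higher (2 without young 2) and 27 to 33 lower. Of all genes 19.2% to 25.9% were higher and 21.9% to 28.9% lower there. H2-Q2 was not tested at a mean count of at least 50.

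The replicate block, an alternative in which library number is a term, left 8 members lower and 0 higher, 4860 genes higher and 5079 lower; among the members and the named pathway genes it ended the call of Jak2 (adjusted p = 0.0727) and of no other; class II chains, markers and the genes most like B2m were not compared under it. The numbers are shared labels without pairing in the data. Ratios of FPKM kept the direction of all 6 ratios, each within 1 SD. With a library left out, the log2 difference ran from 0.156 to 0.67 for Psmb8 to Psmb5, from -1.11 to -0.42 for Psmb9 to Psmb6, from 0.48 to 0.87 for Psmb10 to Psmb7, from -1.02 to -0.84 for B2m to H2-K1, from -0.78 to -0.59 for B2m to H2-D1, and from 1.11 to 1.59 for class II to class I chains. Low counts limit Psmb9, with 29 to 187 counts per library.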
